A study of Mus musculus with 26 samples.

Results

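The genes described here encode the cytosolic ribosomal proteins, the proteins that with ribosomal RNA make up the small and large subunits of the ribosome. They were taken by symbol: Rpl or Rps followed by a digit, Rplp0 to Rplp2 and Rpsa, without the ribosomal S6 kinases, Rps19bp1 and pseudogenes. On the array 49 of 18193 named genes met this rule, 23 of the small subunit and 26 of the large subunit. Among the 49, 43 carry the symbol of a parent ribosomal protein and 6 the symbol of a paralogue (Rpl22l1, Rpl39l, Rpl3l, Rpl7l1, Rps27l and Rps4l). A further 31 genes meeting the rule were represented only by probe sets that also list other loci, so they have no value of their own here.

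Expression was measured in 26 single amacrine cells of the mouse retina, the inhibitory interneurons of the inner retina, each on 1 Affymetrix Mouse 430 2.0 array. Retinas received a plasmid in which the Ndrg4 or the Synapsin promoter drives green fluorescent protein (pNdrg4 or pSynapsin) by electroporation, and a picked cell was fluorescent, so each group holds the cells in which that promoter fragment was active. The cDNA of each cell was primed with oligo dT and amplified by 35 PCR cycles. The values are MAS5 signals, scaled to a trimmed mean of 500 in every cell. At postnatal day 5 (P5) there were 10 pNdrg4 cells whose labels state no culture (called no-culture cells below), 5 pNdrg4 cells from retinas cultured for 5 days and 4 pSynapsin cells from retinas cultured for 5 days. The P8 cells, 2 with pNdrg4 and 2 with pSynapsin, were all from 8-day cultures. At P4 there were 2 pNdrg4 cells and at embryonic day 19 (E19) 1 pSynapsin cell, all from retinas cultured for 4 days. No label says which animal, retina or culture a cell came from, so a group counts as 1 sample here: differences are given with the spread over cells (SD) and no test was possible.

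Detection was set at a signal of 1000 or more, which is 2 times the trimmed mean, and by this measure 1909 to 4180 genes were detected per cell. The no-culture cells had fewer detected genes (1909 to 3513) than the cultured P5 pNdrg4 cells (3049 to 3925). Each cell had a signal of at least 1000 for 2 to 6 of 7 amacrine markers. Between 0 and 8 of 9 rod markers and 0 to 6 of 8 Muller glia markers were also detected in a cell, while the 3 horizontal cell and 4 microglia markers were detected in none. Apoe and Aqp4, among the Muller glia markers, were never detected.

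Ribosomal protein genes are among the most strongly transcribed genes of any growing or protein-producing cell, and a ribosome needs its proteins in fixed proportions. Their mRNAs typically begin with a C followed by a run of pyrimidines, the terminal oligopyrimidine (TOP) tract, through which mTOR signalling and the RNA-binding protein Larp1 set how actively they are translated. In neurons the same mRNAs are found in the cell body and, for some of them, in axons and dendrites.

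The promoter sequences of the family are shown first, since the TOP tract and the promoter around it are what these genes are known to share. RefSeq promoter windows (build GRCm38.p6, 250 bases before to 50 after the annotated start) were given for 43 of the 49 genes, 51 windows in all. CTTTCC or CTTTTC was searched for in the 30 bases around the start (15 on each side, sense strand). Of the 29 windows of genes detected in all 26 cells, 6 carried a match, and these 6 follow with the match in capitals. Relative to the annotated start it began at -12 in Rpl4, -5 in Rpl35, 0 in Rpl38, 3 in Rpl27a, 4 in Rps10 and 9 in Rpl13a. A match here need not be a TOP tract.
Rpl38 (chr11:114668565-114668594, + strand): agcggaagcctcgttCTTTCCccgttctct
Rpl35 (chr2:39005117-39005146, - strand): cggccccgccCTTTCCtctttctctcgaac
Rpl27a (chr7:109519180-109519209, + strand): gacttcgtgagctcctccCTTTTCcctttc
Rps10 (chr17:27635230-27635259, - strand): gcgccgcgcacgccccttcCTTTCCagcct
Rpl4 (chr9:64173372-64173401, + strand): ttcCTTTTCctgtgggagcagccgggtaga
Rpl13a (chr7:45128731-45128760, - strand): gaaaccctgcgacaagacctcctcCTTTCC

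Either hexamer lay within this stretch in 9 of the 51 windows (17.6%), against 2.44% of the 32851 windows in the table and 2.19% of those of genes detected in at least 2 cells. Among the mitochondrial ribosomal protein genes, which serve the separate ribosome of the mitochondrion, the share was 2.74%. The share was 20.7% for members detected in all 26 cells and 13.6% for the other members.

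A second motif of the family is CCGGAAG, the core bound by ETS factors such as GABP, searched on both strands over the whole window. It is shown here in capitals for 3 genes, picked as examples. Relative to the annotated start the match began at -20 in Rpl38, -56 in Rpl41 and -39 in Rpl19. It also lay close to the start in genes not shown, such as Rpl37 (-23) and Rps10 (-29).
Rpl38 (chr11:114668549-114668578, + strand): gggttaaccgtCCGGAAGcggaagcctcgt
Rpl41 (chr10:128549206-128549235, - strand): tagtaaggcagCCGGAAGtcgctgtctcga
Rpl19 (chr11:98026660-98026689, + strand): acttagcgtgaCTTCCGGctacccagagga

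CCGGAAG was present in 41.2% of the members' windows, 8.86% of all windows, 18.2% of those of detected genes and 34.2% of those of mitochondrial ribosomal protein genes. AAGATGG, the core of the YY1 site, searched likewise on both strands, was in 15.7% of the members' windows, 6.34% of all windows, 7.67% of those of detected genes and 17.8% of those of mitochondrial ribosomal protein genes. GGGCGG, the core of the Sp1 site, was in 52.9% of the members' windows, 35.7% of all windows and 64.2% of those of detected genes. The motifs were counted independently of each other and may overlap. A match is a match of letters, and these shares are descriptions.

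Most ribosomal protein genes were detected in every cell. A signal of at least 1000 was found in all 26 cells for 30 of the 49 genes (61.2%), against 0.682% of all named genes (124 of 18193). The 30 genes made up 24.2% of those 124. The median ribosomal protein gene was detected in 26 cells, and the median named gene in 1 cell. For a gene detected in 26 of 26 cells the exact 95% Clopper-Pearson interval of the share runs from 86.8% to 100%, which covers counting error only. It treats the cells as independent draws, although they come from several groups and no label names their animal, retina or culture. A probe set's brightness depends on its own sequence, so signals are compared between cells and never between genes.

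**Figure D1:**
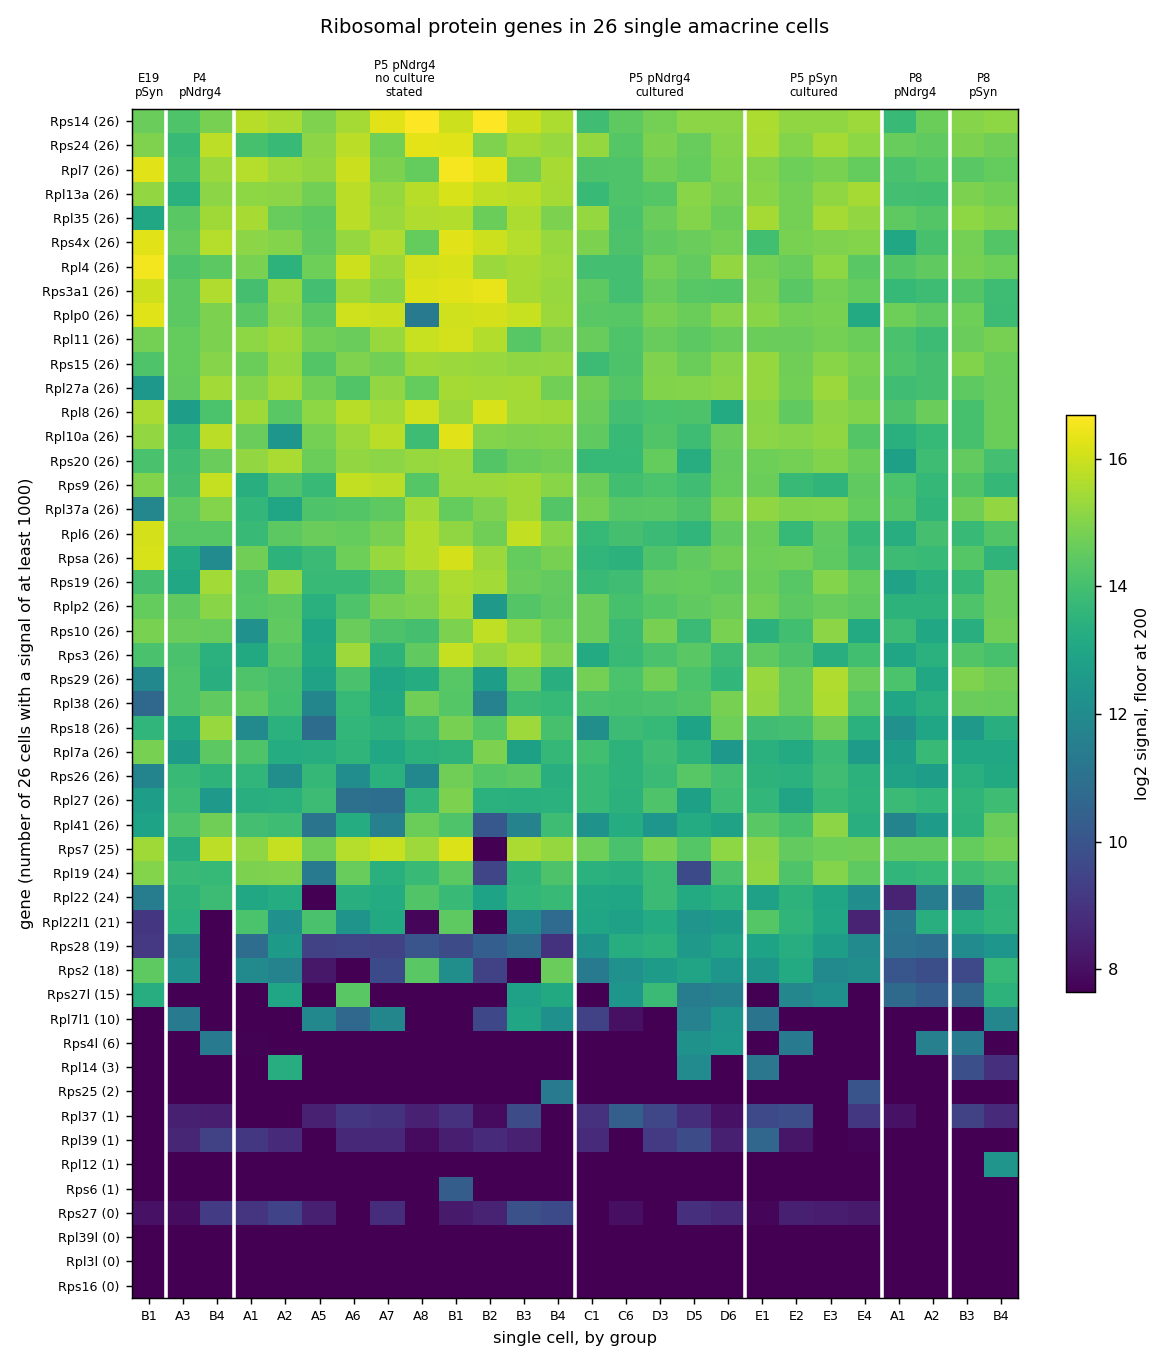
Each row is 1 of the 49 ribosomal protein genes, with the number of cells at a signal of at least 1000 in brackets, and each column is 1 of the 26 cells, ordered by group (white lines). Colour is the log2 signal with a floor at 200. The upper 30 rows are bright in every column, single dark squares stand out in Rps7, Rpl19 and Rpl22, and the lowest 10 rows are dark in nearly all cells.

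The 30 genes found in every cell include both measured proteins of the stalk, the flexible arm that recruits translation factors. Rplp0, which anchors the stalk, ranged from 2589 to 78328 over the 26 cells with a median of 28995, and Rplp2 ranged from 5922 to 46058 with a median of 22603. Rpl11, which with its partner protein binds the smallest rRNA of the large subunit and can bind Mdm2, ranged from 14630 to 69358. Rpsa, a small subunit protein also known as the laminin receptor precursor, ranged from 4100 to 72734. Rps15, a small subunit protein near the decoding site, varied least of the 30, from 14567 to 43336 (SD of log2 signal 0.45 over 26 cells). The widest of the 30 had an SD of 1.24.

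Over the 26 cells the median SD of log2 signal was 0.75 for the 30 ribosomal protein genes and 0.88 for the 94 other genes detected in every cell. Of the 20 genes with the smallest SD among the 124, 8 were ribosomal protein genes, and of the 40 smallest, 16 were. The genes also varied together to some degree. The median Spearman correlation over the 435 pairs of the 30 genes was 0.34 across the 26 cells (5th and 95th percentile -0.24 and 0.69). It was 0.17 over pairs of the 94 other genes. Among genes detected in at least 2 cells it was 0.18 for the 41 ribosomal protein genes, 0.06 for the 70 mitochondrial ribosomal protein genes and 0.03 for 25 initiation factor genes. These are descriptions over cells that differ in group and in the number of detected genes, which also enter the correlations.

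Departures from detection in all cells were of several kinds. The first kind was a single gap in an otherwise bright gene. Rps7, a small subunit protein mutated in some patients with Diamond-Blackfan anaemia, was detected in 25 cells and had a signal of 17.8 in no-culture cell B2, although its median over all cells was 29408. Rpl19, a large subunit protein at the exit of the peptide tunnel, was detected in 24 cells and fell short of 1000 in no-culture cell B2 (739) and cultured P5 pNdrg4 cell D5 (810), against a median of 14692. Rpl22, an RNA-binding protein of the large subunit, was detected in 24 cells and had signals of 9.51 in no-culture cell A5 and 368 in P8 pNdrg4 cell A1, against a median of 9416. Cell B2 had the fewest detected genes of all cells (1909) and also the fewest detected ribosomal protein genes (32).

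The second kind was a gene detected in some cells and missing in others. Rpl22l1, the paralogue of Rpl22, was detected in 21 cells and missing in the E19 cell, P4 cell B4, no-culture cells A8 and B2 and P5 pSynapsin cell E4. Rps28, a small protein near the exit of the mRNA channel, was detected in 19 cells. Rps2, a protein at the mRNA entry channel of the small subunit, was detected in 18 cells, with signals from 62.9 to 25238. The paralogue Rps27l, a p53-induced relative of Rps27, was detected in 15 cells. The paralogue Rpl7l1 was detected in 10 cells, and its parent Rpl7 in all 26. The paralogue Rps4l was detected in 6 cells, and its parent Rps4x in all 26. In the paralogue pair Rpl22 and Rpl22l1 the gaps fell in different cells, but they are too few to show a relation.

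The third kind was a gene with little or no signal on any probe set of its own. Rpl14 was detected in 3 cells, Rps25 in 2, and Rpl12, Rpl37, Rpl39 and Rps6 in 1 cell each. Rps16, Rps27, Rpl39l and Rpl3l were detected in 0 of 26 cells. The exact Clopper-Pearson interval, as used above for 26 of 26 cells, allows a share of cells with detection of up to 13.2%. Rps27 nonetheless reached 951 in its brightest cell. Rps6 is the ribosomal protein whose phosphorylation by S6 kinase is the usual readout of mTOR activity; its single cell above 1000 was no-culture cell B1 at 1266. Of these 10 genes, 8 (those other than the paralogues Rpl39l and Rpl3l) also stand on 24 probe sets that list other loci as well, and 18 of these 24 were at 1000 or more in all 26 cells, at least 1 of them for each of the 8 genes. The counts of these 8 genes describe their single-gene probe sets only. Over all probe sets that list a gene of this family together with other loci, 73 of 110 were at 1000 or more in every cell and 11 in none.

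The cells differed little in how many ribosomal protein genes they showed and more in how strong the signals were. Between 32 and 39 of the 49 genes were detected per cell, with a median of 37. The summed signal of the 49 genes was 2.17% to 5.65% of the summed signal of all named genes, with a median of 3.75%. Over the no-culture cells this share ranged from 2.69% to 5.65% with a median of 4.12%. It was 2.98%, 3.22%, 3.28%, 3.76% and 4.04% in the 5 cultured P5 pNdrg4 cells and 3.28%, 3.75%, 4.23% and 4.30% in the 4 P5 pSynapsin cells. The 2 P8 pNdrg4 cells, at 2.17% and 2.66%, were the lowest of all cells, and the P8 pSynapsin cells were at 3.32% and 3.47%. The P4 cells were at 2.71% and 3.82%, and the E19 cell was at 4.20%.

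**Figure D2:**
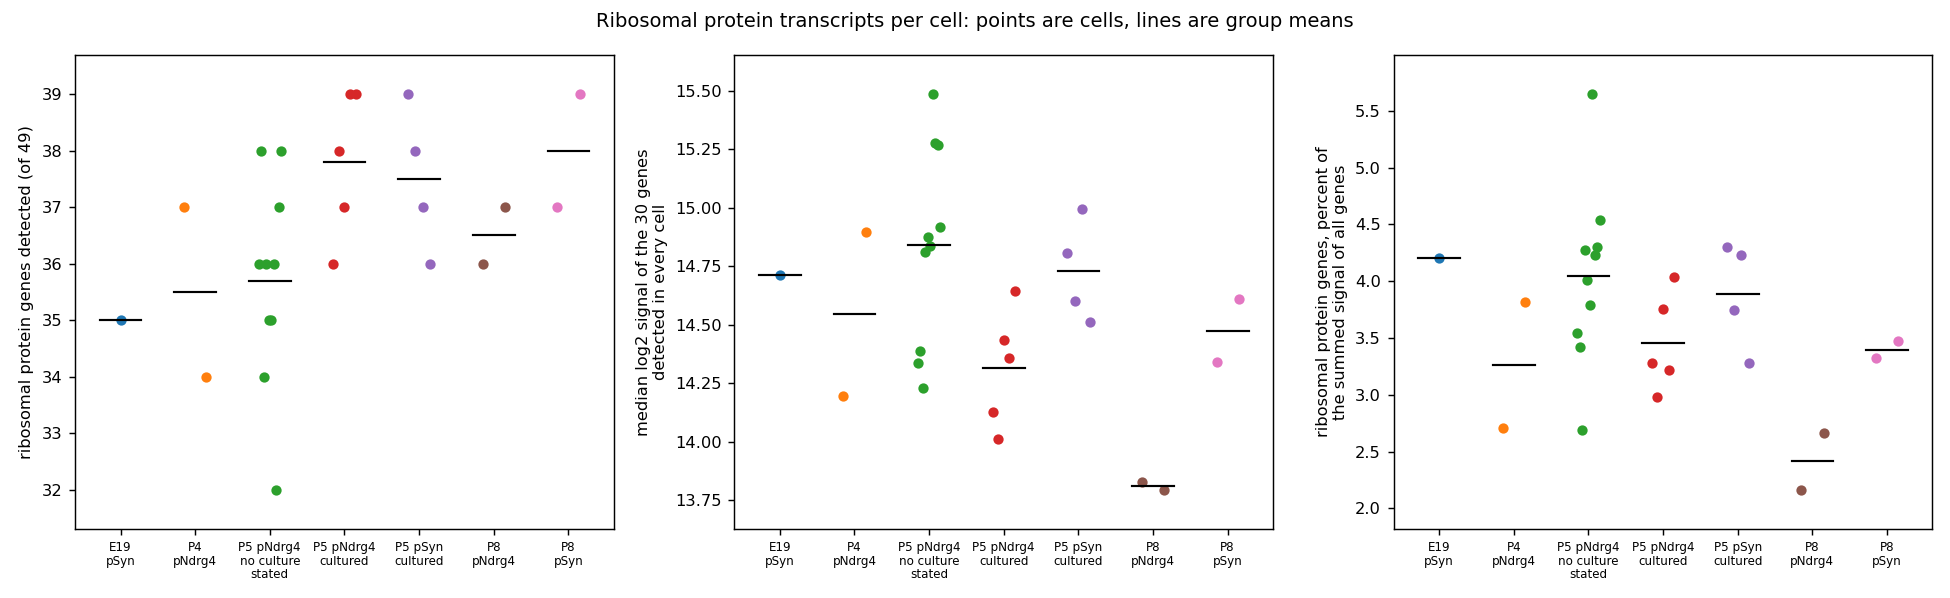
Points are single cells in 7 groups and black lines are group means, for the number of ribosomal protein genes detected (of 49), the median log2 signal of the 30 genes detected in every cell, and the percentage of the summed signal of all named genes. The no-culture cells spread widely, from 2.69% to 5.65% in the right panel, and the 2 P8 pNdrg4 cells sit lowest there, at 2.17% and 2.66%.

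These cell values moved with the number of genes detected. Across the 26 cells the Spearman correlation with the number of detected genes was 0.57 for the number of ribosomal protein genes detected, -0.53 for the median log2 signal of the 30 genes and -0.42 for the share of summed signal (Pearson 0.60, -0.62 and -0.47). These are descriptions: both quantities come from the same array, and every array was scaled to the same trimmed mean.

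For comparisons between groups, signals were raised to a floor of 200 and log2 transformed, and the difference of the group means was taken for each of the 8570 genes detected in at least 2 cells. Of the 49 ribosomal protein genes 41 passed this filter and 8 did not. A gene was called higher or lower at a difference of at least 1 log2 unit, that is 2-fold. Some groups enter more than 1 comparison: the cultured P5 pNdrg4 cells enter the culture, the P5 reporter and the age comparison, and the other cultured P5 and P8 cells enter a reporter comparison and the age comparison.

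**Figure D3:**
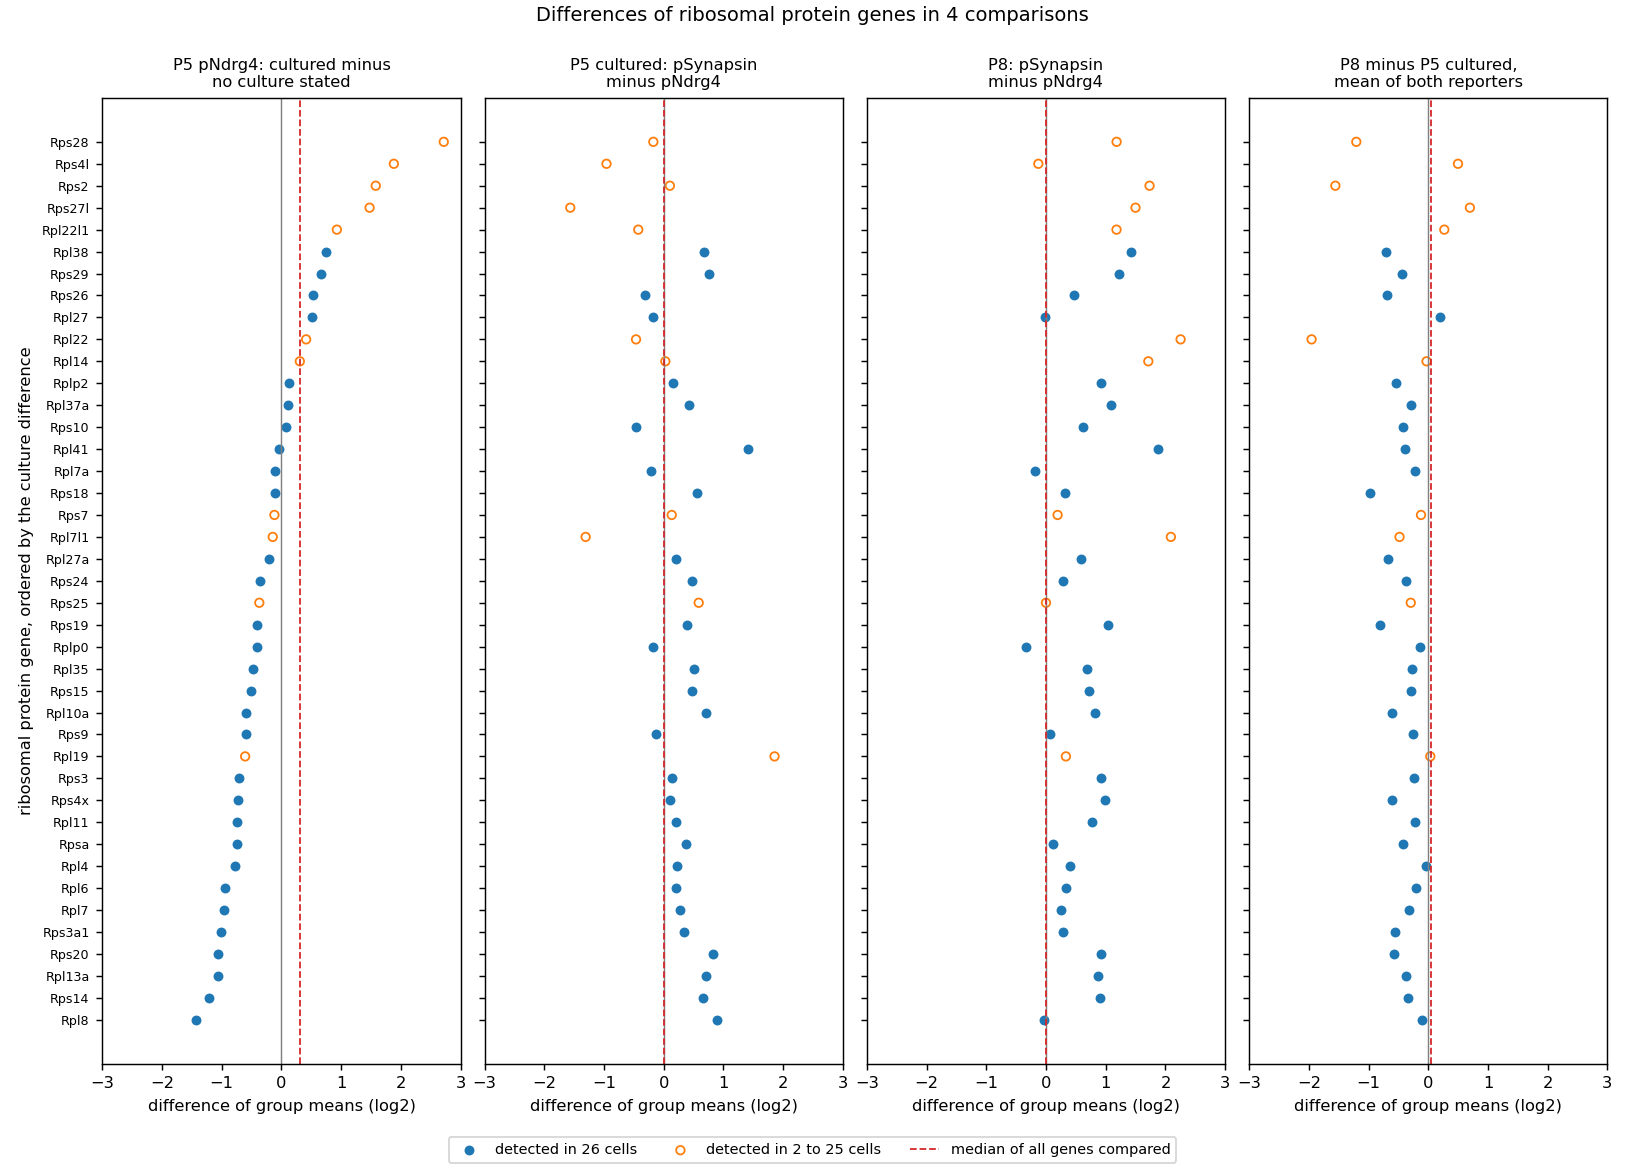
Differences of group means (log2) of the 41 ribosomal protein genes detected in at least 2 cells, in 4 comparisons, in the order of the culture difference. Filled points are the 30 genes detected in every cell, open points those detected in fewer, the dashed line is the median of all genes compared and the grey line is 0. The culture panel runs from -1.43 (Rpl8) to 2.72 (Rps28), most points in the P8 reporter panel lie to the right of 0, and most points in the age panel lie to the left.

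The first comparison asked how P5 pNdrg4 cells from cultured retinas differ from those with no culture stated. In the deposited signals most ribosomal protein genes were lower in the cultured cells: 27 of the 41 were below 0 and 14 above, with a median difference of -0.36, where the median of all genes was 0.31. By at least 1 log2 unit 5 of the 41 were lower (9.05% of all genes were) and 4 were higher (26.5% of all genes were). The direction of the family's median depended on the scaling of the arrays: under quantile normalization, with the median of all genes at 0, it was 0.40, 31 of 43 genes were above 0, and 2 were lower and 11 higher by at least 1, against 15.4% and 20.4% of all genes. The median of the 30 genes detected in every cell was -0.49, and so was that of the 94 other such genes.

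Rpl8, a large subunit protein close to the peptidyl transferase centre, had the lowest difference. Its signal was 9146, 16350, 17730, 18536 and 25469 in the 5 cultured cells, and ranged from 21175 to 73138 with a median of 44170 in the 10 no-culture cells. Only no-culture cell A2 lay within the range of the cultured cells. The group means were 14.02 ± 0.54 (SD, 5 cells) and 15.45 ± 0.49 (SD, 10 cells), a difference of -1.43, and -0.65 under quantile normalization.

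Rps14, a small subunit protein of the platform, followed. It was at 15486, 22091, 28303, 35265 and 35478 in the cultured cells, and from 31603 to 105862 with a median of 58676 in the no-culture cells. The groups overlapped through no-culture cell A5 only, and the difference of means was -1.21 (-0.16 under quantile normalization). Rpl13a, a large subunit protein that can also leave the ribosome to repress inflammatory mRNAs, was lower by 1.06 on its brightest probe set. The probe sets of Rpl13a disagreed: another one detected in all 26 cells gave -1.31, while those detected in 15 and 16 cells gave 2.11 and 1.04. Rps20 had a difference of -1.06, Rps3a1 of -1.01 and Rpl7 of -0.96, and these became -0.26, -0.13 and -0.03 under quantile normalization.

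At the other end, Rps28 had signals of 5057, 5833, 7759, 9845 and 11232 in the 5 cultured cells. In the 10 no-culture cells it ranged from 505 to 6118 with a median of 952, and only cell A2 (6118) lay within the cultured range. The difference of means was 2.72, with means of 12.89 ± 0.49 (SD, 5 cells) and 10.17 ± 1.05 (SD, 10 cells), and the other probe sets of Rps28 gave 3.26 and 3.12. Rps2 was 1.58 higher, from 2717 to 7802 in the cultured cells and from 62.9 to 25238 in the no-culture cells, a range that contains the cultured one. The paralogue Rps27l was 1.48 higher, with a pooled SD within groups of 2.65, so the difference was smaller than the spread. Rps4l was 1.88 higher and rests on few cells, since it was detected in 6 of all 26 cells. Of the genes detected in every cell, Rpl38, a large subunit protein needed for translation of certain Hox mRNAs, was highest with a difference of 0.74, and Rps29 followed with 0.66. The pooled SD within groups was 0.78 for Rpl38 and 0.59 for Rps29, and the groups overlapped for both.

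Among the genes detected in every cell, the differences ran with the number in the symbol, a pattern noticed after the values were seen. The numbers were historically given by migration in gels, so higher numbers tend to be smaller proteins. For the 12 genes numbered up to 11, from Rps3 and Rpl4 to Rpl11, the median difference was -0.74 and 11 of 12 were below 0. The 7 genes numbered 12 to 25 had a median of -0.51, and all 7 were below 0. The 8 genes numbered 26 and over, among them Rpl38, Rps29, Rps26 and Rpl27, had a median of 0.31, and 5 of 8 were above 0. Across the 27 genes the Spearman correlation of number and difference was 0.64, 0.67 within the large subunit (14 genes) and 0.58 within the small subunit (13 genes). It stayed between 0.58 and 0.69 when each compared cell was left out, and was 0.60 under quantile normalization. The counts above and below 0 are for the deposited signals only, and the family's median changed sign under quantile normalization. The correlation is across genes of the same cells, which are not independent. In the P5 reporter comparison it was 0.38, and 0.34 to 0.42 with single cells left out. In the P8 reporter comparison it was 0.43, with 0.70 in the large and 0.20 in the small subunit, and it was 0.24 without P8 pNdrg4 cell A2. In the age comparison it was -0.33, and -0.06 without the same cell.

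**Figure D4:**
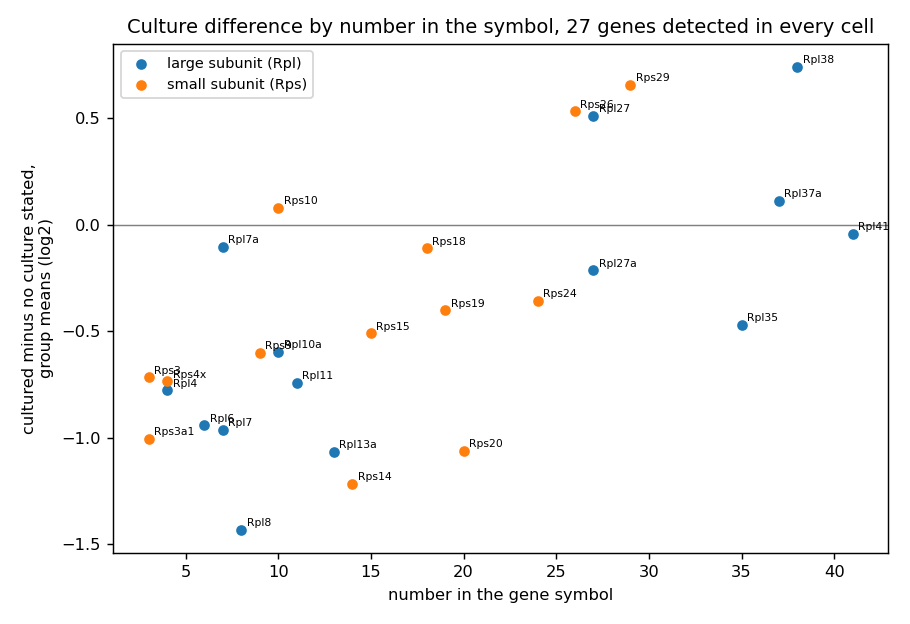
Each point is 1 of the 27 numbered ribosomal protein genes detected in every cell. The horizontal axis is the number in its symbol. The vertical axis is the cultured minus no-culture difference of group means (log2) in the deposited signals, with the line at 0. Points on the left, such as Rpl8 at -1.43, lie mostly below the line, and the points above it at 0.5 and over are Rpl38, Rps29, Rps26 and Rpl27.

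Other quantities differed between the same cells. The summed signal of the rod markers ranged from 351 to 61372 in the no-culture cells and from 1003 to 5929 in the cultured P5 pNdrg4 cells, and that of the Muller glia markers from 5505 to 62706 and from 654 to 20364. That of the amacrine markers ranged from 24110 to 151268 and from 23563 to 94077. The part of these and of the number of detected genes in the ribosomal protein differences was not tested.

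The second comparison set pSynapsin against pNdrg4 cells in cultured P5 retinas. The ribosomal protein genes were on balance slightly higher in the pSynapsin cells as deposited, with 29 of the 41 above 0, 12 below and a median of 0.21, against 0 for all genes, but the median was -0.04 under quantile normalization. By at least 1 log2 unit 2 genes were higher (20.7% of all genes were) and 2 lower (18% of all genes were). With arrays scaled to a common 75th percentile the median was 0.48, and 5 were higher and 2 lower. Over the 30 genes detected in every cell the deposited median was 0.35, near the 0.33 of the 94 other such genes. The summed signal of the rod markers was higher in every pSynapsin cell (7513 to 70306) than in any pNdrg4 cell (1003 to 5929), and its part in these differences was not tested.

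Rpl41, the smallest ribosomal protein, had signals of 10252, 17063, 21101 and 35746 in the 4 pSynapsin cells and of 5061, 5347, 7433, 9419 and 9697 in the 5 pNdrg4 cells. All 4 pSynapsin cells were above all 5 pNdrg4 cells, with a difference of means of 1.42 and a pooled SD of 0.61. A second probe set of Rpl41, detected in 25 cells, gave 2.13. Rpl19 had a difference of 1.86, of which a large share rests on its gap in pNdrg4 cell D5. Without that cell the difference was 1.06. Its groups did not overlap either, from 18918 to 36975 in the pSynapsin cells and from 810 to 17314 in the pNdrg4 cells. Rps20 was at 26090, 26216, 28662 and 32134 in the pSynapsin cells and at 9961, 13213, 13373, 23487 and 23992 in the pNdrg4 cells, again without overlap, with a difference of 0.83. Rpl41, Rpl19 and Rps20 were picked for their high differences, and the share of all genes without overlap was not counted. The genes lower by at least 1 were the paralogues Rps27l (-1.56, pooled SD 2.41) and Rpl7l1 (-1.31). Rps10 followed with -0.47. The probe sets of Rpl7l1 disagreed: another one, detected in 9 cells, gave 1.25. On the probe set used, Rpl7l1 was detected in 1 of 4 pSynapsin and 2 of 5 pNdrg4 cells, so its direction is not settled.

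The same reporters compared at P8 rest on 2 cells each. The ribosomal protein genes were higher in the pSynapsin cells for 35 of the 41 and lower for 5, with a median of 0.72 against 0 for all genes. By at least 1 log2 unit 12 of the 41 (29.3%) were higher, against 25.1% of all genes, and 0 were lower, against 24.7%. The median was 0.44 under quantile normalization and 0.94 at a common 75th percentile. Over the 30 genes detected in every cell the median was 0.66, against 0.25 for the 94 other such genes. The summed signal of the ganglion cell markers, of which at most 2 of 5 were detected in a cell, was 430 and 1928 in the pSynapsin cells and 5243 and 9568 in the pNdrg4 cells, and its part in these differences was not tested.

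Rpl38 was at 24444 and 25464 in the P8 pSynapsin cells and at 8068 and 10618 in the P8 pNdrg4 cells, a difference of 1.43. Rpl41 was at 11587 and 24953 against 3365 and 6327, a difference of 1.88. Rps29 was at 27090 and 31399 against 8651 and 17908, a difference of 1.23. Rps28 was at 4084 and 5351 against 1968 and 2156, a difference of 1.18. For these genes neither pSynapsin cell overlapped the pNdrg4 cells. They were picked for high differences between groups of 2 cells, and the share of all genes without overlap was not counted. Rpl22 had the highest difference, 2.25, with signals of 1983 and 11769 against 368 and 2789, and its cells overlapped; a further probe set of Rpl22 gave -3.20. Rplp0 was lowest at -0.33, with 14563 and 26305 against 22559 and 26773.

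The third comparison set P8 against P5 cells of cultured retinas, taken within each reporter and averaged. Age and days in culture rise together in these cells (8 against 5 days) and cannot be told apart. The ribosomal protein genes were lower at P8 for 36 of the 41 and higher for 5, with a median of -0.34 against 0.05 for all genes, and the median stayed below 0 under quantile normalization (-0.27) and at a common 75th percentile (-0.33). Few genes passed the threshold: 3 were lower by at least 1 log2 unit (12.7% of all genes were) and 0 higher (18.5% of all genes were). Of the 30 genes detected in every cell 29 were below 0, with a median of -0.37, against -0.06 for the 94 other such genes. Within pNdrg4 the median of the 41 was -0.54 against 0 for all genes, with 36 below 0, 8 lower (19.6% of all genes were) and 0 higher (26.3%) by at least 1. Within pSynapsin it was -0.20 against 0, with 30 below 0, 1 lower (20.3%) and 3 higher (24.9%) by at least 1. Whether the reporters differ in this was not tested. The summed signal of the rod markers ranged from 35847 to 47292 in the P8 pNdrg4 cells, from 8937 to 99477 in the P8 pSynapsin cells, from 1003 to 5929 in the cultured P5 pNdrg4 cells and from 7513 to 70306 in the P5 pSynapsin cells, and its part in the differences was not tested.

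The 3 genes lower by at least 1 were Rpl22, Rps2 and Rps28. Rpl22 was at 368 and 2789 in the P8 pNdrg4 cells and at 1983 and 11769 in the P8 pSynapsin cells. At P5 it was at 8190, 8603, 9315, 10930 and 14356 with pNdrg4 and at 4344, 7208, 7940 and 11398 with pSynapsin. Of the P8 cells 3 of 4 were below all 9 P5 cells, and the difference was -1.95, while the probe set of Rpl22 that gave the opposite sign at P8 gave 0.34. Rps2 had signals of 797, 899, 1076 and 13427 at P8 and of 2717 to 9347 at P5, with a difference of -1.55 that was -0.54 to -2.57 when single cells were left out. Rps28 was at 1968, 2156, 4084 and 5351 at P8. At P5 it ranged from 4047 to 11232, so the P8 pNdrg4 cells lay below all P5 cells, with a difference of -1.20 and other probe sets at -1.06 and -0.94. Rps18 (-0.98) and Rps19 (-0.81), the latter the gene most often mutated in Diamond-Blackfan anaemia, came next. Rpl4, which lines the peptide exit tunnel, had a difference of -0.04. Rpl22 and Rps28 were picked for their low differences, and the share of all genes with P8 cells below all P5 cells was not counted.

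The single E19 cell and the 2 P4 cells entered no comparison. In the E19 cell, Rpl4 (94606), Rpl6 (69801) and Rps4x (80050) had their highest signals of all 26 cells. Rpl38 (1677), Rps29 (3775) and Rpl35 (8686) had their lowest there. Rplp0 (78328) and Rpsa (72734) also had their highest signals in this cell. Rpl27a (5703), Rpl37a (3657) and Rps26 (3403) had their lowest there, but Rpl41 (7519) and Rpl27 (6692) did not. All were picked after the values were seen. The relation of signal to symbol number over all members was not measured in this cell. The P4 cells were at 18933 and 23146 for Rpl38 and at 18899 and 21874 for Rpl4, within the range of the P5 cells.

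Other genes of translation, given by lists, were less uniform in detection. Their culture differences stand beside a median of 0.31 over all genes, of which 26.5% were higher and 9.05% lower by at least 1. Fau, which encodes a small subunit protein fused to a ubiquitin-like protein and falls outside the symbol rule, was detected in all 26 cells with a culture difference of -0.70 (0.06 under quantile normalization). Of 6 measured elongation factor genes 3 were detected in every cell, and the culture median was -0.40 (-0.16 under quantile normalization), with Eef1a1, which delivers aminoacyl-tRNA, at -1.14 and Eef2, which drives translocation, at -0.82. The 5 other genes with known TOP transcripts had a culture median of -1.16 and 3 were lower by at least 1, namely Tpt1 (-1.62), Naca (-1.16) and Nap1l1 (-2.32). Under quantile normalization their median was -0.54 and 1 was lower.

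Of the 25 measured initiation factor genes 3 were detected in every cell. Their culture median was 0.73, with 11 higher (44.0%) and 2 lower (8.0%) by at least 1, and it was 0.45 under quantile normalization, where the cytosolic ribosomal protein genes had 0.40. Of 20 ribosome assembly genes 0 were detected in every cell (median 6.5 cells). The culture median of the 17 that passed the filter was 0.17 (-0.02 under quantile normalization), with 6 higher (35.3%) and 2 lower (11.8%) by at least 1. Of 12 measured regulators of ribosome production and TOP translation, such as Larp1, the 10 that passed the filter had a culture median of 0.57 (0.03 under quantile normalization), with 3 higher (30%) and 0 lower by at least 1.

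The 76 mitochondrial ribosomal protein genes were detected in a median of 9.5 cells and 0 of them in all 26. Among the 70 that passed the filter the culture median was 0.60 (0.32 under quantile normalization), with 22 higher (31.4%) and 7 lower (10.0%) by at least 1, shares near those of all genes. In the age comparison their median was 0.31, with 19 higher (27.1%) and 11 lower (15.7%), where 18.5% and 12.7% of all genes were.

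Lists within the family gave culture medians of -0.61 for the 3 genes at the exit tunnel that passed the filter (Rpl4, Rpl19 and Rpl35), -0.24 for 6 genes linked to Diamond-Blackfan anaemia, -0.74 for Rps4x as the X-linked gene that passed it and -0.14 for the stalk genes Rplp0 and Rplp2. Under quantile normalization the Diamond-Blackfan median was 0.76 and the stalk median 0.69. The median in the deposited signals was -0.36 for the 20 small subunit genes and -0.21 for the 21 large subunit genes.

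Probe sets of 1 gene did not always give the same sign. Of 20 ribosomal protein genes with at least 2 probe sets detected in at least 2 cells, all probe sets had the same sign for 13 in the culture comparison, 14 in the P5 reporter comparison, 17 in the P8 reporter comparison and 16 in the age comparison. The median range between probe sets of a gene was 0.25 in the culture comparison, and the largest was 3.42, for Rpl13a.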

How the data were processed

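The authors deposited 1 signal intensity per probe set and cell on a linear scale; the submitters' processing notes name MAS5 (version not given in the sources used here). With 2% trimmed from both ends, every array averages 500, so no further scaling was applied. Probe sets were named through GEO's platform annotation and RefSeq identifiers; 34958 of 45101 list 1 gene and 932 list several and name none. Per gene, the probe set of highest mean log2 signal (floor 200) was used. Computing used Python 3.11.15 with pandas 2.3.3, numpy 2.4.6 and scipy 1.17.1, and plotting matplotlib 3.10.9. The code for the differences was checked on simulated signals with planted shifts, which tests none of the differences given here. With each group as 1 sample, no p-value or standard error was made, and the number of cells limits the precision. The members, lists and alternatives were chosen with earlier results of these data known. Genes named per comparison were taken from the 6 highest and 6 lowest members, though not all of those are given. The ranking was among members with detection in 60% or more of the higher group's cells. Paralogue pairs, stalk genes, Rpsa, Rpl11, Rps6 and all members in 3 or fewer cells were named as well. Rps4l, Rpl7l1 and the genes named for the E19 cell were added after their values were seen.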

Additional observations from a re-analysis of the deposited data

Results flagged for a closer look

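Single cells stood apart from the rest of their group in 12 of 106 looks at a gene or cell summary in a group of 4 to 10 cells, by the gap to the nearest cell relative to the range of the group. How many to expect by chance was not worked out. Where all other cells of a group lay at the floor, any cell above it counted as standing apart. This was so for Rpl7l1 in cell E1, Rps4l in cells A1 and E2 and Rps6 in cell B1. Cells lowest in their group were D5 of the cultured P5 pNdrg4 cells for Rpl19 (log2 signal 9.66), no-culture cell A5 for Rpl22 (at the floor, 7.64), no-culture cell A8 for Rplp0 (11.34), P5 pSynapsin cell E4 for Rplp0 (13.16) and P5 pSynapsin cell E1 for Rps4x (13.97). Cells highest in their group were D6 of the cultured P5 pNdrg4 cells for Rpl38 (14.84), P5 pSynapsin cell E1 for Rpl7l1 (11.13), P5 pSynapsin cell E3 for Rps26 (13.92), no-culture cell A2 for Rps28 (12.58), no-culture cell A1 for Rps4l (7.71), P5 pSynapsin cell E2 for Rps4l (11.37) and no-culture cell B1 for Rps6 (10.31). Rps4l in cell A1 lay just above the floor, where the other cells of its group lay.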

How the results depend on the processing

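Of 136 counts and medians recomputed under other settings, 109 stayed within their spread or within 1.5 times and 27 did not; no paired analysis was possible because no result comes from a test and each group counts as 1 sample. Quantile normalization gave a culture median of 0.40 with 11 higher and 2 lower, and a P8 reporter median of 0.44; a common 75th percentile gave P5 and P8 reporter medians of 0.48 and 0.94 and 5 higher at P5. The median over probe sets, or leaving out _s_at and _x_at probe sets, left 3 lower in culture, and the latter gave a P8 reporter median of 0.62. The highest probe set in each cell, the median over probe sets and a floor of 1 times the trimmed mean each left 1 lower in the P5 reporter comparison. Without paralogue genes 2 were higher in culture and 0 lower in the P5 reporter comparison. A floor of 0.1 times, group medians and no detection filter each gave 1 higher in the age comparison. Adding probe sets that list other loci, chosen after seeing the data, gave 103 features in all 26 cells, a median of 122.5 per cell, 11 higher and 11 lower in culture, 10 and 5 in the P5 reporter comparison, 2 and 5 in the age comparison and a P8 reporter median of 0.62. Leaving out single cells moved the culture median between -0.42 and -0.23 (3 to 5 higher, 3 to 6 lower; 3 lower without no-culture cell B1 or cultured cell C6 or C1). It moved the P5 reporter median between 0.14 and 0.34 (2 to 3 higher, 1 to 3 lower; 1 lower without D5, D6 or E4), the P8 reporter median between 0.51 and 0.71 and the age median between -0.38 and -0.29 (0 to 1 higher, 2 to 6 lower; 6 lower without P8 pSynapsin cell B4). The other scalings of the gene lists and of the symbol-number relation were also chosen after seeing the data. The cause of these changes was not tested. Of 192 differences of named genes, 174 stayed within 1 SD over cells and 18 did not, with no called difference changing sign.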
